A study of Mus musculus with 24 samples.

Results

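The 10 genes followed here are ones that airway epithelium uses to signal to leukocytes: the cytokines Il33, Tslp and Il18 and the chemokines Cxcl1, Cxcl5, Cxcl15, Cxcl16, Cxcl17, Ccl20 and Cx3cl1. They were taken by name, and all 10 were found among the 35855 genes in the tables of 24 RNA sequencing libraries. Each library came from 1000 airway epithelial cells sorted from the trachea of untreated wild-type female mice, of the strain C57BL/6 by the series title. The 3 groups of 8 libraries were cells sorted for high BCAM (a laminin-binding surface protein, the basal cell adhesion molecule), cells with low BCAM, and a group that the labels call differentiated epithelial cells. By the series title the study concerns subsets of basal cells, the progenitors of the airway lining. In each group 5 libraries (replicates 1 to 5) belong to batch 1 and 3 (replicates 6 to 8) to batch 2. What the batch number stands for, the age of the mice, how many mice gave cells to a library and the sort gate of the differentiated group are stated in no source used here, so p-values measure only the spread between these libraries, which may in part be technical.

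The airway epithelium is a source of alarmins and chemokines as well as a barrier. IL-33, TSLP and IL-18 act on innate lymphoid and T cells, and IL-33 and IL-18 lack a signal peptide and leave the cell by routes other than ordinary secretion. CXCL1, CXCL5 and CXCL15 carry the ELR motif of neutrophil attractants that act through CXCR2, CCL20 draws cells that carry CCR6, and CXCL17 is a mucosal chemokine of secretory epithelium. CX3CL1 and CXCL16 are made as membrane-anchored proteins with a chemokine head, which the proteases ADAM10 and ADAM17 can shed. Many of these genes are textbook targets of NF-kB, the transcription factor downstream of Toll-like, IL-1, IL-17 and TNF receptors.

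Depth was 1824619 to 4440072 estimated counts per library, and 12211 genes passed the filter on low counts. The labels were set against marker lists, whose levels were summed as CPM (each gene's count relative to a library total scaled by the TMM method). All 10 basal markers were called higher in both BCAM groups than in differentiated cells (by the test described further on), with sums of 8160.1 to 10728 CPM in BCAM high cells, 6876 to 8295 in BCAM low cells and 290.1 to 2766 in differentiated libraries. The secretory sum was 298884 to 434821 CPM in differentiated libraries of batch 1 but 15973 to 110421 in those of batch 2, while a thyroid and parathyroid list reached 16357 to 43239 CPM in the former and 49449 to 116850.0 in the latter, against at most 1284 CPM in any BCAM library. Secretory sums were 27169 to 35504 CPM in BCAM high and 35129 to 86065 in BCAM low. Differentiated replicates 6 and 7, at 25881 and 15973 CPM, were thus below every BCAM library in this sum. In BCAM libraries the sum was mostly Bpifa1 and Cyp2f2, with means of 10173 and 18669 CPM in BCAM high. Scgb3a1 and Tff2 went the other way. They were at least 1796 and 11.9 CPM in every differentiated library and at most 517 and 10.6 in any BCAM library. The rest of the list did not separate in this way. Ciliated markers summed to 259 to 491 CPM in BCAM low of batch 2 and to 12.1 to 31.0 in BCAM low of batch 1. Leukocyte markers summed to 27.2 to 61.1 CPM in BCAM high and 10.7 to 58.2 in differentiated libraries. In BCAM low they summed to 75.9 to 174 CPM in batch 1 and 23.1 to 47.6 in batch 2. Of the 6 tested leukocyte markers, 3 were called higher in BCAM high and 5 in BCAM low than in differentiated cells. In these 2 comparisons 41.3% and 33.5% of all tested genes were called. Between the BCAM groups 0 of the 6 were called. The differentiated group thus held secretory, ciliated and thyroid transcripts in proportions that differed between the 2 batches.

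The regulatory sequence at the start of Cxcl1 and Ccl20 is shown because both promoters hold a match to the NF-kB consensus, and that of Cxcl15, a neighbour of Cxcl1 on chromosome 5, because it holds none. RefSeq (GRCm38.p6) gave a promoter, 250 bases before to 50 after the start, for 6 of the 10 genes, with 2 starts for Il33. Capitals mark the match, and the sequences run 5′ to 3′ on the gene's strand.
Cxcl1: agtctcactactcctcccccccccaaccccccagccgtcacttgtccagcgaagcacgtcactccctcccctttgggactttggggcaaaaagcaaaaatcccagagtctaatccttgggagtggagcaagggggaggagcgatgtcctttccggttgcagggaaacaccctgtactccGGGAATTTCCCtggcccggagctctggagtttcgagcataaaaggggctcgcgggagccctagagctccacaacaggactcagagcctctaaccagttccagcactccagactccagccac
Ccl20: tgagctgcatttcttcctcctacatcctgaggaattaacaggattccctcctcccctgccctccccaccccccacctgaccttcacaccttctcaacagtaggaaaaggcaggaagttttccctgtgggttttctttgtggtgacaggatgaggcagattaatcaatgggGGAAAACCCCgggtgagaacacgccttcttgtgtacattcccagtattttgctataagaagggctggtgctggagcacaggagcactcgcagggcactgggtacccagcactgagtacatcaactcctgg
Cxcl15: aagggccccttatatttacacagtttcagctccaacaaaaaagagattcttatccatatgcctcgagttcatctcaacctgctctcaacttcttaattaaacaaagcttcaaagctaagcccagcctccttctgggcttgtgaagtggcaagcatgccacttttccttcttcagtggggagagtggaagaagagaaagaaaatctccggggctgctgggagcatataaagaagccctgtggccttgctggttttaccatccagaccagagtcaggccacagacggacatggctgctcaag
The Cxcl1 window lies at chr5:90890995-90891294 (plus strand) and its match GGGAATTTCCC, which reads as a match on both strands, begins 71 bases before the start. In the Ccl20 window, chr1:83116516-83116815 (plus strand), GGAAAACCCC begins 80 bases before the start. It fits the consensus only when read on the opposite strand. The Cxcl15 window is chr5:90794284-90794583 (plus strand). The consensus, searched on both strands, occurs in 8.5% of the 32851 promoters of the same length (2779), and no other window found for these genes (Cx3cl1, Il18, both of Il33) holds it. The letters TATAAA, also searched on both strands and held by 13.6% of promoters, occur in the Cxcl15, Cx3cl1 and both Il33 windows, in that of Il18 on the opposite strand alone, and in neither of the windows with an NF-kB match. A match describes the letters and is not evidence of binding.

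In length-scaled abundance summed over each gene's transcripts, the order of the genes by group mean changed with the cell group. In bulk libraries of 1000 cells, fewer cells that express a gene and less RNA per cell cannot be told apart, which applies to every value here. In BCAM high cells Cx3cl1 stood first with 86.3 ± 24.8 TPM (the authors' length-scaled transcript abundance, mean ± SD, n = 8), and its range of 58.7 to 139 TPM overlapped that of Cxcl17, which was next with 59.3 ± 16.5 TPM. Cxcl16 came next with 33.1 ± 3.86 TPM, and Cxcl1 and Ccl20 followed at 16.5 ± 3.49 and 14.5 ± 13.1 TPM, which overlapped. Il18, Cxcl15, Il33, Cxcl5 and Tslp had means of 2.28 TPM or less there. A gene's TPM sums its transcripts, and counts assigned to short transcripts weigh more in it. The 377-base Cx3cl1-205 held 4.8% of pooled Cx3cl1 counts in BCAM high. Whether Cx3cl1 would stand before Cxcl17 there without its short transcripts was not tested, so its first place is a description only. In BCAM low cells Cxcl17 led with 347 ± 198 TPM, without overlap with Cx3cl1 at 50.1 ± 23.1 TPM, and in differentiated cells it led with 637 ± 320.1 TPM against 39.2 ± 13.3 TPM for Cx3cl1. Cx3cl1 and Cxcl16 followed it in both of these groups with overlapping ranges. All 10 genes together summed to 215 ± 42.2 TPM in BCAM high cells, 458 ± 187 in BCAM low cells and 765 ± 334 in differentiated cells. Cxcl17 alone made up 27.3% ± 3.05, 72.2% ± 14.6 and 79.7% ± 10.2 of that sum. The differentiated sums ran from 257 to 1245 TPM. Replicates 6 and 7, at 311 and 257, lay near or within the BCAM high range of 171 to 291. TPM are not scaled for differences in composition between libraries, so these sums are a description only. Tslp was last in all 3 groups, with at most 0.384 TPM in a group's mean.

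**Figure D1:**
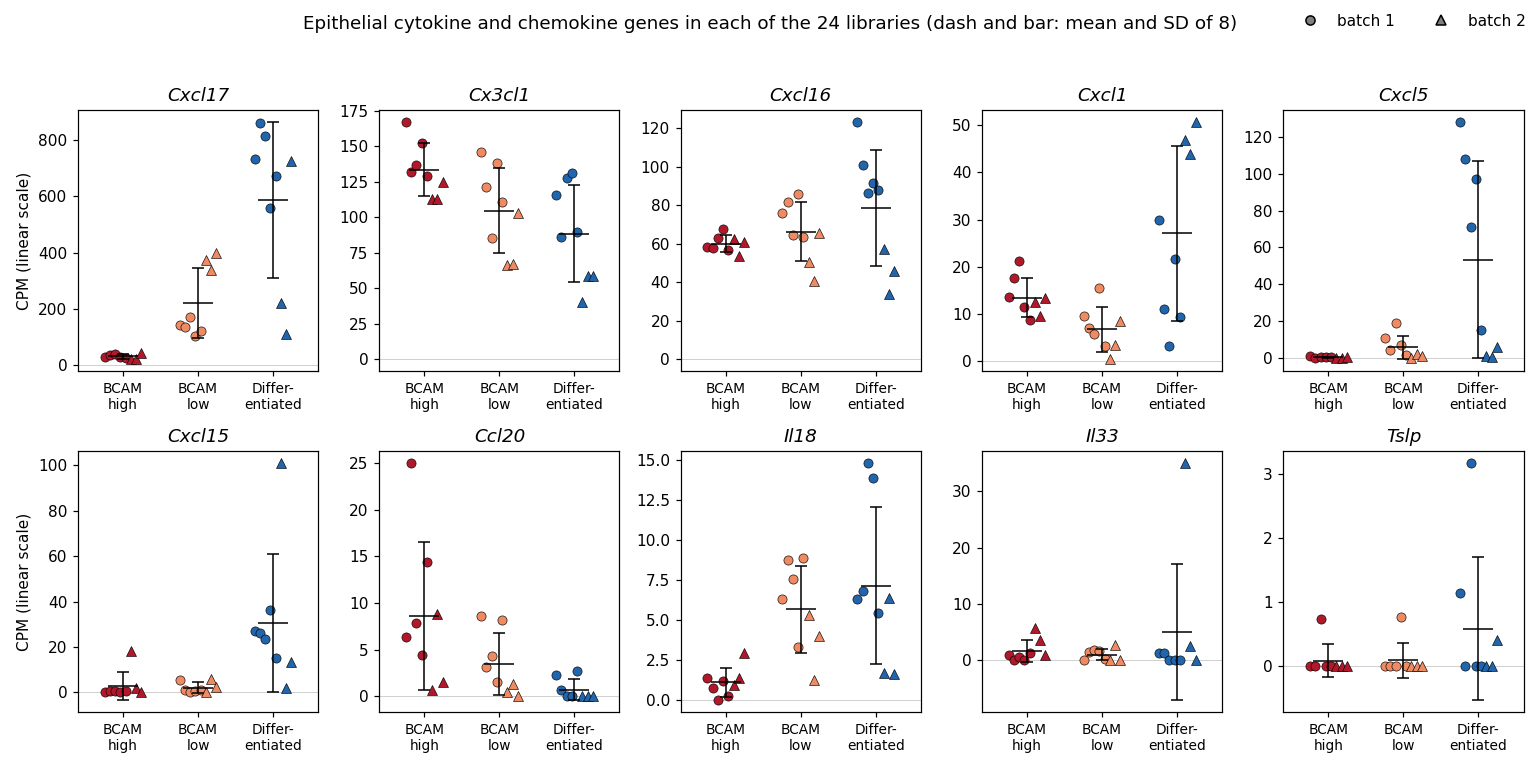
Level of each gene in CPM (linear axis, a scale of its own per gene) in the 8 libraries of each group; circles are batch 1, triangles batch 2, and the dash with its bar is the mean and SD. Cxcl17 does not overlap between BCAM high (22.0 to 44.2 CPM) and either other group. How many of all genes separate in this way was not counted. Cx3cl1 and Ccl20 have their highest group means in BCAM high. Their ranges overlap with BCAM low, and neither was called against it by the test described further on. The highest Il33 value, 35.0 CPM, is that of 1 differentiated library.

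Differences between groups were tested with edgeR's quasi-likelihood F-test over all 24 libraries, with batch as a covariate and Benjamini-Hochberg (BH) adjustment over the 12211 genes (edgeR QL), and genes with an adjusted p under 0.05 were called. Of the 10 genes, 8 passed the low-count filter, and Il33 and Tslp did not. Between BCAM high and BCAM low 3 of the 8 were called, Cxcl5, Cxcl17 and Il18, all lower in BCAM high, while 7.02% of all tested genes were called. Against differentiated cells 6 of the 8 were called for BCAM high (Ccl20 and Cx3cl1 higher; Cxcl5, Cxcl15, Cxcl17 and Il18 lower; background 41.3%), and 5 of the 8 for BCAM low (Ccl20 higher; Cxcl1, Cxcl5, Cxcl15 and Cxcl17 lower; background 33.5%). These 3 comparisons share libraries. The median log2 change of the 8 tested genes was -0.07, -1.73 and -0.88 in the 3 comparisons, beside 0.00, 0.02 and 0.02 for all tested genes.

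**Figure D2:**
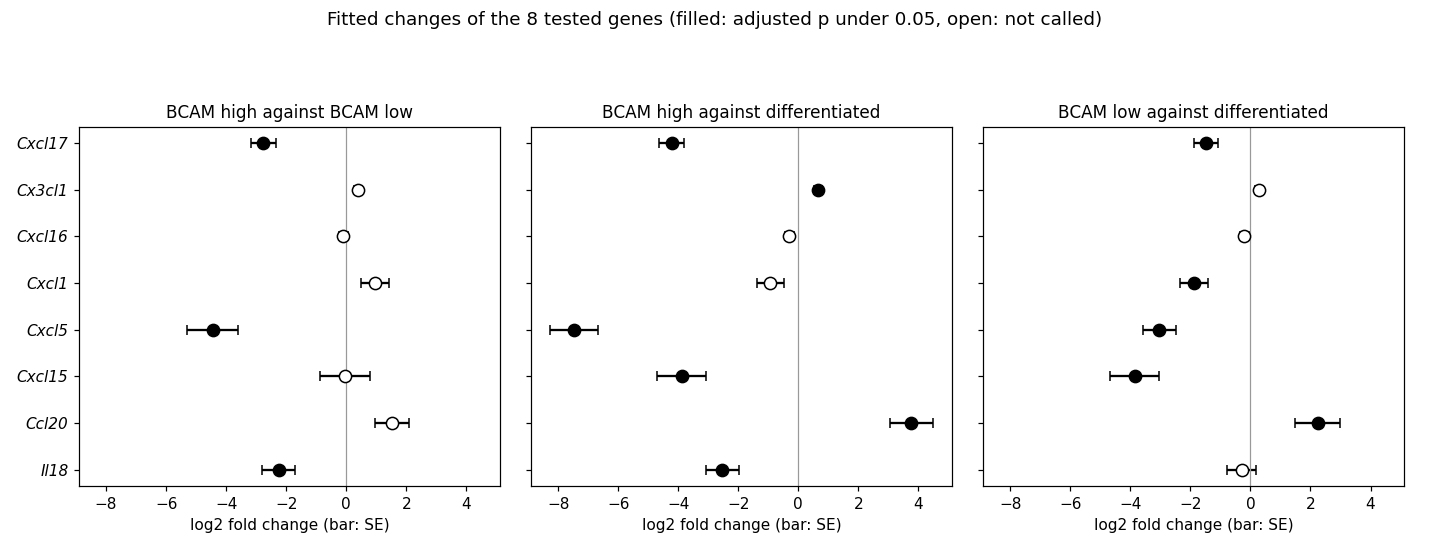
Fitted log2 fold change with its SE (bar) of the 8 tested genes in the 3 group comparisons; filled points have an edgeR QL adjusted p under 0.05, open points do not, and the vertical line marks no change. Cxcl5 and Cxcl17 lie left of the line in all 3 panels, Ccl20 and Cx3cl1 right of it.

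Cxcl17 (ENSMUSG00000060188, GRCm38 chromosome 7, 25400053 to 25412886, minus strand) was the only one of the 8 tested genes whose BCAM high libraries overlapped neither other group. How many of all tested genes separate in this way was not counted, so the separation is given as a description only. The level of Cxcl17 was 22.0 to 44.2 CPM in BCAM high cells (median 29.8), 103 to 398 in BCAM low cells (median 156) and 110.1 to 861 in differentiated cells (median 698). BCAM low and differentiated cells overlapped each other. The log2 change of BCAM high was -2.76 (SE 0.41) from BCAM low (edgeR QL, adjusted p = 2.35e-04, lower in each of the 8 same-numbered comparisons) and -4.22 (SE 0.42) from differentiated cells (edgeR QL, adjusted p = 5.43e-08). BCAM low was lower than differentiated cells by a log2 change of -1.47 (SE 0.40; edgeR QL, adjusted p = 0.00659). Almost all Cxcl17 counts were assigned to 1 of its 2 annotated transcripts, Cxcl17-202, which took 96.3% ± 8.7 of them (SD, n = 24). The 2 transcripts are 761 and 760 bases long and share their start and first exon. This share therefore comes from the authors' division of reads among nearly equal transcripts. An annotated antisense gene covers the locus for 12834 bases and is not analysed here, and no source used here says that counting used strand.

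The step from BCAM low to differentiated cells depended on the batch. In batch 1 the 5 BCAM low libraries had 103 to 171 CPM of Cxcl17 and the 5 differentiated ones 559 to 861, without overlap, and the log2 change within that batch was -2.43 (edgeR QL, adjusted p = 5.96e-13). In batch 2 the BCAM low libraries had 373, 339.5 and 398 CPM and the differentiated ones 223, 110.1 and 725, and the change was 0.07 (edgeR QL, adjusted p = 0.969). The 2 batches differed in this comparison by 2.50 on the log2 scale (SE 0.55; edgeR QL, adjusted p = 0.00518), as did 11.4% of all tested genes in either direction. The 2 lowest differentiated libraries for Cxcl17, replicates 6 and 7, are also those with the lowest secretory sums, and the BCAM low libraries of batch 2 had secretory sums of 73992 to 86065 CPM against 35129 to 57023 in batch 1; the part of these markers in the result was not tested. Without the 3 differentiated libraries of batch 2 the log2 change of BCAM low from differentiated was -2.13 (edgeR QL, adjusted p = 1.17e-05). Between BCAM high and BCAM low the change was -2.02 within batch 1 (edgeR QL, adjusted p = 2.88e-10) and -3.65 within batch 2 (adjusted p = 0.0577).

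**Figure D3:**
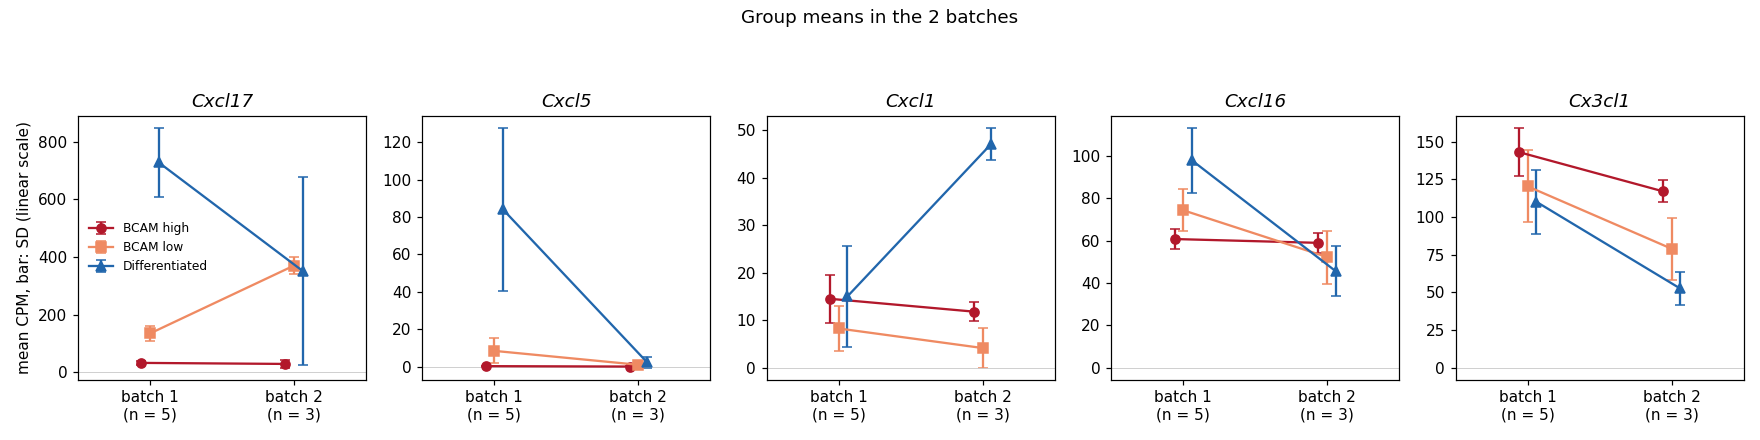
Mean CPM with SD (bars, linear axis) of 5 genes in batch 1 (n = 5 per group) and batch 2 (n = 3 per group); red circles are BCAM high, orange squares BCAM low, blue triangles differentiated cells, and lines join the means of a group. Cxcl17 goes from 135 to 370.2 CPM in BCAM low and from 728 to 352 in differentiated cells, Cxcl5 in differentiated cells goes from 84.0 to 2.44, and Cxcl1 in differentiated cells from 15.0 to 47.1.

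Cxcl1, Cxcl5 and Cxcl15, the 3 neutrophil attractants, lie near one another on GRCm38 chromosome 5 (Cxcl5 at 90759360 to 90761624, Cxcl15 at 90794534 to 90803067 and Cxcl1 at 90891241 to 90893115, all on the plus strand), yet their patterns differed. Cxcl5 (ENSMUSG00000029371) was nearly absent from BCAM high cells, with 0 to 0.826 CPM (7 counts over 8 libraries). It reached 0 to 18.8 CPM in BCAM low cells (median 3.32) and 0.427 to 128 in differentiated cells (median 43.3). All 3 ranges overlapped, since BCAM low replicate 6 was at 0 and differentiated replicate 7 at 0.427 CPM. BCAM high was lower than BCAM low (log2 change -4.45, SE 0.85, higher in none of the 8 same-numbered comparisons; edgeR QL, adjusted p = 0.00210) and lower than differentiated cells (-7.47, SE 0.79; adjusted p = 5.34e-08), and BCAM low was lower than differentiated cells (-3.03, SE 0.55; adjusted p = 1.53e-04).

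Cxcl5 also showed the widest fitted batch gap of the 8 tested genes. The differentiated libraries of batch 1 had 128, 108, 71.2, 97.2 and 15.3 CPM, and those of batch 2 had 1.13, 0.427 and 5.76. BCAM low libraries ranged from 1.33 to 18.8 CPM in batch 1 and from 0 to 2.14 in batch 2. Across the groups the log2 change of batch 2 from batch 1 was -4.27 (SE 0.68; edgeR QL, adjusted p = 1.12e-04). Cxcl5 was 1 of 4 tested members called for batch, with Cxcl16, Ccl20 and Cx3cl1, all lower in batch 2, against 21.4% of all tested genes called in either direction. Within batch 2 alone, where BCAM high held 1 count, the 3 comparisons of Cxcl5 were not called.

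Cxcl1 (ENSMUSG00000029380), the mouse KC, had a count in every library, though only 1 count in BCAM low replicate 6. It measured 8.64 to 21.3 CPM in BCAM high cells (median 12.9), 0.441 to 15.6 in BCAM low cells (median 6.41) and 3.17 to 50.6 in differentiated cells (median 25.8). BCAM high exceeded BCAM low in 7 of the 8 same-numbered comparisons, but the log2 change of 0.96 (SE 0.46) was not called (edgeR QL, adjusted p = 0.237). BCAM low was lower than differentiated cells (-1.88, SE 0.48; edgeR QL, adjusted p = 0.00389), and this rested on batch 2. The differentiated libraries of batch 2 had 46.9, 43.9 and 50.6 CPM, above every other library, while those of batch 1 had 29.9, 11.1, 3.17, 21.7 and 9.28. Within batch 1 the log2 change was -0.87 (edgeR QL, adjusted p = 0.163), within batch 2 -3.54 (adjusted p = 3.25e-04), and without the 3 differentiated libraries of batch 2 it was -0.98 (adjusted p = 0.115). BCAM high against differentiated cells was not called over both batches (-0.93; edgeR QL, adjusted p = 0.109) or within batch 1 (-0.05; adjusted p = 0.953) but was within batch 2 (-2.00; adjusted p = 0.00416). For BCAM low the difference between the batches, -2.67 (SE 0.81), was called (edgeR QL, adjusted p = 0.0334), and it was no longer called when any 1 of 8 libraries was left out (BCAM low replicates 1, 4, 6 and 7 and differentiated replicates 2, 5, 6 and 7). The 3 differentiated libraries of batch 2 also had the highest thyroid and parathyroid sums, 49449 to 116850.0 CPM, whose part was not tested. Within differentiated cells the mean of Cxcl5 was lower in batch 2 (84.0 and 2.44 CPM) and that of Cxcl1 higher (15.0 and 47.1 CPM), a contrast within 1 group that was not tested.

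The retained-intron transcript Cxcl1-202 took a sizeable share of Cxcl1 counts. In libraries with at least 20 counts it held 21.9% ± 12.6 in BCAM high (SD, n = 8), 31.4% ± 20.1 in BCAM low (n = 4) and 37.5% ± 20.4 in differentiated cells (n = 5), ranges that overlap. These shares come from the authors' division of reads among transcripts that share sequence.

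Cxcl15 (ENSMUSG00000029375), also called lungkine and known from lung epithelium, was a gene of the differentiated group. It measured 2.13 to 101 CPM there (median 24.9), against 0 to 18.2 in BCAM high (median 0.607) and 0 to 6.00 in BCAM low (median 1.15). Each BCAM group was lower than differentiated cells, BCAM high by a log2 change of -3.89 (SE 0.83; edgeR QL, adjusted p = 5.96e-04) and BCAM low by -3.86 (SE 0.82; adjusted p = 9.30e-04). Neither was called within batch 2 alone (-2.51 and -3.73; edgeR QL, adjusted p = 0.335 and 0.265). Between BCAM high and BCAM low the change was -0.04 (SE 0.84; adjusted p = 0.991).

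The extreme Cxcl15 values came from 2 libraries with alveolar transcripts. Sftpc, the surfactant gene of alveolar type 2 cells, was at 444 CPM in BCAM high replicate 6 and 4135 in differentiated replicate 6, against at most 102 CPM in the other 22 libraries. A list of 8 alveolar genes, written after the values were seen, summed to 864 and 7243 CPM in those 2 libraries and to 104 to 2024 elsewhere. Cxcl15 was 18.2 CPM in the first and 101 in the second, the highest value of each group. Without both libraries the log2 change of BCAM high from differentiated was -4.98 (edgeR QL, adjusted p = 4.71e-06), that of BCAM low -3.26 (adjusted p = 2.66e-04), and that of BCAM high from BCAM low -1.72 (adjusted p = 0.176). The 5 differentiated libraries of batch 1, with Sftpc at 0.528 to 7.10 CPM, had 15.3 to 36.1 CPM of Cxcl15. Differentiated replicate 7, with Sftpc at 102 CPM, had the lowest Cxcl15 of its group, 2.13 CPM.

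Il33 and Tslp, the alarmins, were at or near the limit of detection. A count of 3 corresponds to 0.665 to 1.86 CPM, depending on the library. Il33 (ENSMUSG00000024810, GRCm38 chromosome 19, 29925114 to 29960718, plus strand) had 41 counts over the 8 BCAM high libraries, 27 over BCAM low and 72 over differentiated cells, with medians of 0.858, 0.820 and 0.576 CPM. Of the 72 counts in differentiated cells, 62 were in replicate 6, at 35.0 CPM, the library with the most Sftpc. The next highest Il33 value, 5.65 CPM, was in BCAM high replicate 6, the other Sftpc library, and the remaining 22 libraries had 0 to 3.54 CPM. Together the 2 libraries held 80 of the 140 Il33 counts. Il33-202, whose start is the upstream one of the 2 RefSeq promoters, took 93.4% of the pooled counts.

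Tslp (ENSMUSG00000024379) had 3 counts in BCAM high cells, 3 in BCAM low cells and 9 in differentiated cells, and was at 0 in 19 of the 24 libraries. With so few counts no difference between groups was detectable. When all 30467 genes with a count were tested without the filter, neither Il33 (edgeR QL, adjusted p = 0.992, 0.536 and 0.660 in the 3 group comparisons) nor Tslp (1.00, 0.240 and 0.268) was called between groups. The only call for either gene in that fit was Il33 in the difference between batches of BCAM low against differentiated cells (log2 -4.83, adjusted p = 0.0400), where differentiated replicate 6 holds 62 of the 68 counts of its group in batch 2.

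**Figure D4:**
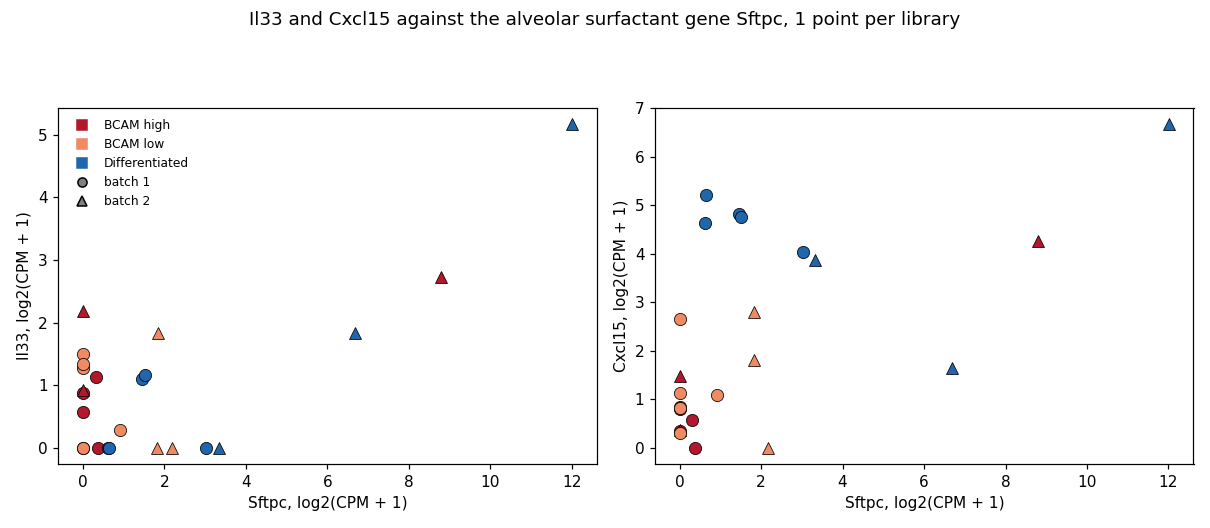
Il33 (left) and Cxcl15 (right) against Sftpc in each of the 24 libraries, all as log2(CPM + 1); colours give the group and shapes the batch. The rightmost triangles are differentiated replicate 6 (Sftpc 4135 CPM) and BCAM high replicate 6 (444 CPM), the 2 highest for Il33; the blue circles show Cxcl15 of 15.3 to 36.1 CPM with little Sftpc.

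Il18 (ENSMUSG00000039217, GRCm38 chromosome 9, 50554827 to 50581840, plus strand) was lower in BCAM high than in both other groups. It measured 0 to 2.96 CPM in BCAM high cells (median 1.06), 1.29 to 8.86 in BCAM low cells (median 5.81) and 1.65 to 14.8 in differentiated cells (median 6.37). BCAM high was lower than BCAM low (log2 change -2.25, SE 0.55, 7 of 8 same-numbered comparisons; edgeR QL, adjusted p = 0.0106) and lower than differentiated cells (-2.53, SE 0.56; adjusted p = 4.93e-04), and BCAM low and differentiated cells were not called apart (-0.29, SE 0.48; adjusted p = 0.689). The separation was that of batch 1, where BCAM high had at most 1.38 CPM and no BCAM low library was under 3.31 (within batch -3.26; adjusted p = 6.26e-04). In batch 2 the ranges overlapped, 0.941 to 2.96 against 1.29 to 5.29 CPM (-0.97; adjusted p = 0.695). BCAM high was not called against differentiated cells within batch 2 either (-0.88; adjusted p = 0.511). Between the BCAM groups the difference between batches was not called (2.28, SE 1.00; adjusted p = 0.344). Il18 rests on few reads, 30 counts over BCAM high, and the opposite-strand gene Bco2 shares 355 bases with it (122 counts in all libraries).

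Ccl20 (ENSMUSG00000026166, GRCm38 chromosome 1, 83116766 to 83119167, plus strand) ran the other way. It had 257 counts over the BCAM high libraries, 113 over BCAM low and 10 over differentiated cells, or 0.627 to 25.0 CPM (median 7.08), 0 to 8.59 (median 2.30) and 0 to 2.73 (median 0). Ccl20 was higher in BCAM high than in differentiated cells (log2 change 3.76, SE 0.72, 8 of 8; edgeR QL, adjusted p = 1.06e-04) and higher in BCAM low than in differentiated cells (2.24, SE 0.74, 7 of 8; adjusted p = 0.0205). The change of 1.52 (SE 0.58) between BCAM high and BCAM low, with 7 of 8 in that direction, was not called (adjusted p = 0.113). Without the 3 differentiated libraries of batch 2, all at 0, BCAM low was no longer called against differentiated cells (2.00; adjusted p = 0.0557). Ccl20 was lower in batch 2 (log2 -2.30, SE 0.60; adjusted p = 0.00618), with BCAM high at 4.41 to 25.0 CPM in batch 1 and 0.627, 8.84 and 1.48 in batch 2.

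Cx3cl1 (fractalkine, ENSMUSG00000031778, GRCm38 chromosome 8, 94772009 to 94782427, plus strand) was present at similar levels in every BCAM high library. It measured 113 to 167 CPM there (median 130.2), 66.6 to 146 in BCAM low cells (median 107) and 40.1 to 131 in differentiated cells (median 87.8). All 3 ranges overlapped, but BCAM high exceeded both other groups in all 8 same-numbered comparisons. The log2 change was 0.66 (SE 0.14) against differentiated cells, which was called (edgeR QL, adjusted p = 4.48e-04), and 0.38 (SE 0.14) against BCAM low, which was not (adjusted p = 0.107). The latter was called in 4 alternatives: in a fit of the 2 groups alone (0.36; adjusted p = 0.0435), without the 3 differentiated libraries of batch 2 (0.37; adjusted p = 0.0441), and in limma on log2(TPM + 0.1) and log2(TPM + 1) (0.90 and 0.89; adjusted p = 0.0368 and 0.0296). The 2 limma fits have no scaling for composition, and in them the median of all genes also shifted toward higher in BCAM high. TPM also give short transcripts more weight. The 377-base Cx3cl1-205 held 4.8% of pooled Cx3cl1 counts in BCAM high and 2.1% in BCAM low. The part of either in the larger change on this scale was not tested. BCAM low and differentiated cells were not called apart (0.28, SE 0.14; adjusted p = 0.136). Batch 2 was lower by a log2 change of -0.64 (SE 0.12; adjusted p = 4.60e-04), with means of 143 and 117 CPM in BCAM high cells, 120.3 and 78.9 in BCAM low cells and 110.1 and 52.5 in differentiated cells. Cx3cl1-201, the protein-coding transcript, took 89.2% ± 5.4 of its counts (SD, n = 24).

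Cxcl16 (ENSMUSG00000018920, GRCm38 chromosome 11, 70453983 to 70459984, minus strand), the other membrane-anchored chemokine, was near 60 CPM in every BCAM high library (53.4 to 67.6, median 59.5) and varied more in BCAM low (40.7 to 85.9, median 65.0) and differentiated cells (33.7 to 123, median 86.9). None of the 3 group comparisons was called (log2 changes -0.10, -0.30 and -0.20; edgeR QL, adjusted p = 0.771, 0.114 and 0.323), and the signs of all 3 turn in a fit on log2(TPM + 1), where the median of all genes also shifts upward, by 0.23, 0.64 and 0.40. The batches gave different pictures. In batch 1 every differentiated library (86.0 to 123 CPM) was above every BCAM high library (56.9 to 67.6), and the log2 change was -0.69 (adjusted p = 1.80e-04). In batch 2 the differentiated libraries had 57.0, 33.7 and 45.7 CPM and the BCAM high ones 62.4, 53.4 and 60.8, and the change was 0.36 (adjusted p = 0.291). The difference between batches, 1.07 (SE 0.25), was called (edgeR QL, adjusted p = 0.00471), where 8.69% of all tested genes were. It was not called in limma fits on log2(TPM + 0.1) (0.55; adjusted p = 0.467) or log2(TPM + 1) (0.53; adjusted p = 0.461). For BCAM high against BCAM low, no member was called in the difference between batches, beside 1.06% of all tested genes (edgeR QL), and DESeq2 called 0. An unadjusted p under 0.05 was found for 2 of the 8, beside 1432 of all 12211 genes (edgeR QL).

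A transcript of Cxcl16 annotated as a target of nonsense-mediated decay, Cxcl16-202, held 18.1% ± 9.4 of its counts in BCAM high cells, 23.1% ± 8.9 in BCAM low cells and 30.8% ± 9.6 in differentiated cells (SD, n = 8 each), with overlapping ranges. Cxcl16 shares 552 bases with the opposite-strand gene Zmynd15 (146 counts in all libraries), and without strand such reads cannot be told apart.

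Genes that act on the same proteins were read as lists. Of the 19 genes for processing, shedding and decoys 10 were tested. Between BCAM high and BCAM low 1 of the 10 was called, beside 7.02% of all tested genes. It was Ackr3, a scavenging receptor for CXCL12 (log2 change 0.94, SE 0.21, edgeR QL, adjusted p = 0.00528). Ackr3 was at 119 ± 34.0 CPM in BCAM high cells, 62.2 ± 22.9 in BCAM low cells and 10.7 ± 4.58 in differentiated cells (SD, n = 8). Against differentiated cells, 5 rose and 2 fell in BCAM high (41.3% of all tested genes were called) and 3 rose and 1 fell in BCAM low (33.5%). Ackr3 (log2 3.43 and 2.49) and Casp4, the caspase of the non-canonical inflammasome (1.11 and 0.98), were higher in both. Sigirr, a brake on IL-1 family receptors, was lower in both (-1.07 and -0.62), and Gsdmd, the pore protein through which IL-1 family cytokines can leave, was lower in BCAM high (-1.16). Adam10, which can shed CX3CL1 and CXCL16, was higher by 0.31 in BCAM high and 0.40 in BCAM low, and Adam17 by 0.47 in BCAM high (named after its values were seen). The adjusted p of these genes was at most 0.0422 (edgeR QL). The list's median log2 change was -0.01, 0.37 and 0.12 in the 3 comparisons.

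Of 12 receptors of the members only Il1rap, Cxcr2 and Il18r1 passed the filter. None was called in a group comparison, where 7.02%, 41.3% and 33.5% of all tested genes were (edgeR QL). With an unadjusted p under 0.05 were 0 of 3 between the BCAM groups, 2 against differentiated cells for BCAM high and 1 for BCAM low. Of all 12211 genes, 2537, 5920 and 5236 had such a p in these comparisons. All 12 receptors together summed to 38.2 to 103 CPM per library. The receptors given here were named after their values were seen. Il18r1, a chain of the IL-18 receptor, was the highest, at 42.8 ± 17.2 CPM for BCAM high cells, 48.8 ± 11.2 for BCAM low cells and 50.8 ± 11.1 for differentiated cells (SD, n = 8). Il1rap, a chain that receptors of the IL-1 family share, had means of 14.9 to 21.2 CPM. Cx3cr1, the receptor of CX3CL1, had means of 2.25 ± 1.76, 2.80 ± 2.81 and 0.441 ± 0.424 CPM, and Cxcr6, that of CXCL16, 0.940 ± 1.17, 0.566 ± 1.31 and 0.415 ± 0.573 (BCAM high, BCAM low, differentiated; SD, n = 8). Il1rl1, which binds IL-33, had 0.821 to 1.92 CPM in group means.

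Of 18 NF-kB and sensor genes, all tested, none was called between BCAM high and BCAM low (median log2 change 0.04, edgeR QL). In that comparison 7.02% of all tested genes were called. With an unadjusted p under 0.05 were 2 of the 18, beside 2537 of all 12211 genes. Against differentiated cells 4 rose and 6 fell in BCAM high and 3 rose and 4 fell in BCAM low, with medians of 0.10 and 0.03, where 41.3% and 33.5% of all tested genes were called. Nfkbiz, which encodes the nuclear IkB protein IkB-zeta, was at 419.6 ± 65.5 CPM in BCAM high cells, 349 ± 45.1 in BCAM low cells and 139.5 ± 48.1 in differentiated cells (log2 changes from differentiated of 1.64 and 1.35). Rel was also higher (1.27 and 1.03). Relb, a subunit of the non-canonical arm, was lower (-1.61 and -1.36), as was Tlr2, a receptor for bacterial lipoproteins (-2.91 and -2.65). The adjusted p of these 4 genes was at most 0.00154 in either comparison (edgeR QL). Tlr2 was at 5.14 ± 2.70 and 6.06 ± 3.94 CPM in the BCAM groups and 41.6 ± 31.2 in differentiated cells.

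Among the 20 other chemokines 5 were tested. None was called between BCAM high and BCAM low, where 7.02% of all tested genes were (edgeR QL). With an unadjusted p under 0.05 were 0 of the 5, beside 2537 of all 12211 genes. For BCAM high and BCAM low against differentiated cells, 41.3% and 33.5% of all tested genes were called. Of the 5 chemokines, 3 were lower in each BCAM group than in differentiated cells (edgeR QL, adjusted p at most 0.00196). They were Cxcl12, a homeostatic chemokine (log2 changes -3.04 and -3.97), Ccl28, a mucosal chemokine (-3.60 and -2.65), and Cxcl10, an interferon-induced one (-2.71 and -3.63). Cxcl12 was at 10.8 ± 4.31 CPM in BCAM high cells, 5.39 ± 5.47 in BCAM low cells and 98.8 ± 73.8 in differentiated cells. Of the 21 other cytokines 9 were tested and none was called between the BCAM groups (edgeR QL). With an unadjusted p under 0.05 were 2 of the 9, beside the same 2537 of all 12211 genes. Il7 was higher in BCAM high and BCAM low than in differentiated cells (1.74 and 1.58), Csf1 in BCAM high (1.07), and Il34, which shares its receptor with CSF1, was lower in both (-3.37 and -2.63). Mif was lower in both (-0.63 and -1.10) and Tnfsf10, the death ligand TRAIL, in BCAM high (-1.89), all with an adjusted p of at most 0.0236 (edgeR QL). The median log2 change of the tested chemokines was 0.29, -2.71 and -2.65 and of the tested cytokines -0.04, -0.28 and -0.30 in the 3 comparisons. Thyroid and parathyroid genes were also higher in differentiated cells, 8 of 8 against BCAM high, and their part in these differences was not tested.

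The genes whose centred log2(CPM + 1) values lay closest to each member over the 24 libraries were named by their root mean square (RMS) difference. For Cxcl17 they were Vpreb3, Pglyrp1 and Clic6, at an RMS difference of 0.55 to 0.59 where Cxcl17 itself varied by 1.80 about its mean. Cxcl15 had Slc34a2, Sftpa1 and Cryab (1.09 to 1.18, own 1.95). Slc34a2 and Sftpa1 are on the alveolar list, but that list was written after the values were seen, so the overlap is no separate evidence. Those of Cxcl5 were Ces1f, Muc20 and Cd36 (1.04 to 1.21, own 2.34). Il18 lay closest to Pdzk1ip1, Mal and Ovol1 (0.58 to 0.67, own 1.09). Cx3cl1 was nearest to Sfxn3, Jup and Als2cl (0.26 to 0.28, own 0.50), and Jup encodes plakoglobin of desmosomes. Cxcl16 was nearest to Metap2, Tuft1 and Selenop (0.24 to 0.26, own 0.41). For Ccl20 and Cxcl1 the nearest genes, Tmem108, Ryr3 and Tsc22d3 (0.82 to 0.87, own 1.40) and Izumo4, Tns1 and Chst11 (0.69 to 0.75, own 1.18), were named in the same way. These are descriptions over libraries that share group, batch and depth.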

How the data were processed

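Per the labels, each of the 24 libraries was made by the SmartSeq2 protocol for cell populations from 1000 sorted cells lysed in TCL buffer, and read as pairs of 38 bp on a NextSeq500. The authors deposited 1 table of transcripts per library with an estimated count and a TPM value. Per the submitters' processing notes, kallisto (version given as 46.1), Picard and mouse build GRCm39 were used; no source used here names the annotation. The deposited estimated counts were not normalized and were rounded to whole numbers after summing per gene, and the deposited TPM values were summed per gene.

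Of 117497 transcripts 116374 matched GENCODE M21 (GRCm38), whose coordinates are printed; the other 1123 held 0.317% to 0.594% of counts and were left out. The main test was edgeR 4.0.16 in R 4.3.3 (quasi-likelihood, robust, TMM, default low-count filter with a minimum count of 10) over all 24 libraries with group and batch, and a cell-means fit for differences between batches; each SE was obtained from the change and its F statistic. CPM use TMM-scaled totals. No 2 libraries were identical (highest correlation 0.95). The test was tried on simulated data. Alternatives were DESeq2 1.42.0, limma 3.58.1 on log2 TPM, no filter, no batch term, a replicate block, each batch alone, only the groups compared, and each library left out. Members, lists and tests were chosen with earlier results of these data known. Named list genes are the 4 called ones with the largest change per comparison, apart from those said to be named later. Reads carry no molecular identifiers, so floors cover counting error only.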

Additional observations from a re-analysis of the deposited data

Results flagged for a closer look

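Of 30 sets of 8 libraries (10 genes in 3 groups), 7 had a library farther from its neighbours than Dixon's 95% limit, a limit that about 1 in 20 sets of normally distributed values pass by chance. That rate does not apply to genes near 0 counts, so the 3 sets of Tslp and that of Cxcl5 in BCAM high say little: in the BCAM groups 7 of 8 libraries had no Tslp count, and any count in the eighth passes the limit. Il33 was at 35.0 CPM in differentiated replicate 6, where the next library had 2.56. Cxcl15 was at 101 CPM in the same library (next 36.1) and at 18.2 in BCAM high replicate 6 (next 1.77). Those 2 libraries are the ones with Sftpc at 4135 and 444 CPM. Tslp was at 0.734 CPM in BCAM high replicate 3, 0.765 in BCAM low replicate 4 and 3.17 in differentiated replicate 3, with all or most other libraries of the group at 0. Cxcl5 was at 0.826 CPM in BCAM high replicate 1 (next 0.296), a value of 3 counts.

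Of 24 tests of a difference between batches (8 genes, 3 comparisons), 3 were called by edgeR QL, where 1.06%, 8.69% and 11.4% of all tested genes were called in the 3 comparisons. Cxcl16 in BCAM high against differentiated cells differed by 1.07 on the log2 scale, Cxcl1 in BCAM low against differentiated cells by -2.67, and Cxcl17 in the same comparison by 2.50. The call of Cxcl16 was lost in limma on log2(TPM + 0.1) and log2(TPM + 1), and that of Cxcl1 when any 1 of 8 libraries was left out.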

How the results depend on the processing

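Over 12 alternatives, the calls of Cxcl17, Ccl20 and Cx3cl1 between BCAM high and differentiated cells held in each. Batch 2 alone (3 libraries per group) called 465 genes and 0 members between BCAM high and BCAM low, 2067 genes and 1 member between BCAM low and differentiated cells, and turned Cxcl15 (1.22) and Cxcl16 (0.17) in the first comparison, Cxcl16 (0.36) between BCAM high and differentiated cells, and Cxcl16 (0.19), Cxcl17 (0.07) and Il18 (0.09) in the last. Leaving out the batch term gave 545 genes between BCAM high and BCAM low and turned Cxcl15 (0.40). Fitting only these 2 groups gave 1365 genes and 5 members, with Cxcl1 and Cx3cl1 added. Within batch 2 alone, calls against differentiated cells were lost for Cxcl5 and Cxcl15 in both BCAM groups, Il18 in BCAM high and Cxcl17 and Ccl20 in BCAM low, and Cxcl1 was gained for BCAM high. Cxcl16 was called lower than in differentiated cells in both BCAM groups within batch 1 (-0.69 and -0.40) and without the 3 differentiated libraries of batch 2 (-0.60 and -0.48).

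In limma on log2(TPM + 0.1), which has no scaling for composition, the median of all genes moved to 0.26, 0.75 and 0.48 in the 3 group comparisons (0.23, 0.64 and 0.40 with a pseudocount of 1), and the share of calls that were higher in the first group went from 34.66%, 46.85% and 48.85% to 75.80%, 88.57% and 87.27% (78.24%, 88.32% and 86.59% with 1). With 0.1, 7688 genes were called between BCAM high and differentiated cells, 1706 for batch, and 68, 430 and 689 for the 3 differences between batches; the last 2 were 518 and 774 with 1, and the first comparison 7713. Members called were 3 between BCAM low and differentiated cells and 2 for batch with either pseudocount, and, in the batch difference of BCAM high against differentiated cells, 0 with 0.1 and 1 with 1, where Cxcl5 (3.61) was called in place of Cxcl16. Values that turned were Cxcl16 (0.03, 0.32 and 0.30 with 0.1; 0.02, 0.31 and 0.29 with 1), Cxcl1 between BCAM high and differentiated cells (0.23 and 0.17) and Il18 between BCAM low and differentiated cells (0.36 and 0.30). In the batch difference of BCAM low against differentiated cells, Cxcl16 turned to -0.03 with both and Ccl20 to -1.53 and -1.50, and in that of BCAM high against differentiated cells Ccl20 turned to -1.05 with 1; Ccl20 is at 0 in the differentiated libraries of batch 2, so its fitted batch differences depend on the prior count. The BCAM low against differentiated calls of Cxcl17 (-0.82 with both) and Cxcl1 (-1.56 and -1.27) were lost on this scale, as was, with 1, that of Cxcl5 between the BCAM groups.

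The DESeq2 Wald test called 231 genes in the batch difference of BCAM high against BCAM low and 3 members in that of BCAM high against differentiated cells; edgeR QL without the filter gave 267 and 2. Of the alternatives added after seeing the data, leaving out the 2 libraries with Sftpc above 200 CPM turned the batch term of Cxcl15 to -0.08, and leaving out the 3 differentiated libraries of batch 2 gave 1348 genes between BCAM high and BCAM low and turned Cxcl1 between BCAM high and differentiated cells (0.06). The cause of these shifts was not tested.

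With each library left out in turn, members called stayed at 3 between the BCAM groups, 5 between BCAM low and differentiated cells and 4 for batch, and ranged from 6 to 7 between BCAM high and differentiated cells, from 0 to 1, 1 to 3 and 1 to 2 in the 3 batch differences. Genes called ranged from 683 to 982, 4699 to 5156, 3708 to 4137 and 2340 to 2633 in the group and batch comparisons, and from 63 to 163, 728 to 1522 and 855 to 1953 in the batch differences. The first of these differences fell to 67, 66, 63 and 65 genes without BCAM high replicates 6 and 7 and BCAM low replicates 6 and 7, and the last to 855 without differentiated replicate 7. Between BCAM high and differentiated cells, calls were gained for Cxcl1 without differentiated replicate 3 and Cxcl16 without differentiated replicate 7. In the batch difference of that comparison they were gained for Cx3cl1 (without BCAM high replicate 1, BCAM low replicates 3 and 8 or differentiated replicates 2, 5 and 8, each alone), and for Cxcl1, Cxcl15, Il18 and Cxcl17 without differentiated replicates 1, 6, 7 and 8 in that order. Without differentiated replicate 8, Cxcl17 was also called in the batch difference of BCAM high against BCAM low (-1.62). Cxcl15 between the BCAM groups ranged from -1.67 (without BCAM high replicate 6) to 0.52, and in the batch differences Cxcl5 (BCAM high against BCAM low) from -0.13 to 2.78, Ccl20 (same) from -0.38 to 2.56 and Cxcl15 (BCAM low against differentiated) from -1.07 to 2.44.

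All 24 correlations of deviations between same-numbered libraries were positive (0.04 to 0.19), and 8 were over 0.1, the limit of the rule used. A library correlated best with its own number in 23 of 24, so same-numbered libraries were slightly more alike than others of their batch. Whether they share mice or a preparation is stated in no source used here, and the main test leaves pairing out. A fit with a replicate block called 864, 5129 and 4136 genes and 3, 6 and 5 members, and it changed no call of a member. Depth limits Il33, Tslp, Il18 and Ccl20 most, whose totals over all libraries were 140, 15, 308 and 380 counts.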
